A study of Mus musculus with 5 samples.

Results

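The cytochrome P450 genes of families 1 to 4 were followed in the fetal colon of HNF4 null and control mouse embryos. Every probe set whose annotation gave exactly 1 gene symbol, made of Cyp, a family number from 1 to 4, a subfamily letter and a gene number, was taken as a member. This gave 57 probe sets for 48 genes, out of 22626 probe sets tested and 12393 genes with a symbol of their own. Each of the 57 probe sets matched a mouse RefSeq gene (assembly GRCm38.p6) by gene ID.

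Total RNA of the colon was measured on 1 Affymetrix array per embryo at stage E18.5. Both HNF4 alleles are floxed in the 3 embryos of the null group, null_59, null_60 and null_426, whose genotype is HNF4LoxP/LoxP FoxA3Cre. Their comparison group was made of CONTROL_406 and CONTROL_421, 2 embryos of genotype HNF4LoxP/+ FoxA3Cre. The controls thus carried the same Cre transgene and 1 floxed allele, so that no group had both alleles intact and none lacked the Cre. Foxa3, after which the Cre is named, is a gene of the gut endoderm and its derivatives, and the muscle and connective tissue of the colon, which were in the samples too, come from another germ layer. With 3 arrays against 2, a two-sided exact permutation test of a single value cannot go below p = 0.1. All tests therefore came from 1 limma fit over all probe sets. Its p-values set each difference against the spread between these embryos, moderated towards a variance shared by all probe sets. This moderation raised the 3 residual degrees of freedom to 9.33 in total.

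P450 enzymes are haem proteins, mostly of the endoplasmic reticulum, that insert 1 oxygen atom from O2 into a fat-soluble substrate with electrons passed on by P450 oxidoreductase. Families 1, 2 and 3 hold most of the enzymes that oxidise drugs and other foreign compounds, and family 4 holds enzymes that hydroxylate the far end of fatty acids and eicosanoids. Liver is their main site, the gut epithelium carries a smaller set, and HNF4 alpha is a nuclear receptor of both tissues that is known to act on many P450 genes in liver.

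Cyp2d26 was the 1 member that passed the test: it fell 5.64-fold in the null colons. The other 56 probe sets did not pass, and their log2 differences, HNF4 null minus control on the log2(intensity + 16) scale, ran from -1.04 for Cyp2j6 to 1.10 for Cyp4f13. Of these, 51 lay within 0.5 of 0 (44 with a pseudocount of 1 in place of 16, which widens the differences of dim probe sets). A call was an adjusted p under 0.05 (Benjamini-Hochberg over all 22626 probe sets). Calls lower in the null colons made up 0.106% of all probe sets and 1.75% of the members, calls higher made up 0.0177% of all probe sets and none of the members, and calls in either direction made up 0.124% of all probe sets. By gene, with the brightest probe set for each, 1 of 48 was called lower, against 15 of all 12393 genes.

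The sequences before the transcription start are shown for 6 members, as HNF4 alpha is a DNA-binding factor: Cyp2d26, a pair of its neighbours in the Cyp2d cluster that hold the same kind of element, and 3 members of the Cyp2c and Cyp3a subfamilies that hold a full HNF4-type element. Each is the last 100 bases before the start, from RefSeq (GRCm38.p6), 5′ to 3′ on the gene's own strand. Capitals mark a match to CAAAGNNCA, a loose form of the HNF4 element, and to TATAA, the TATA box. Cyp2d26 lies at chr15:82794246-82794345 (minus strand), Cyp2d10 at chr15:82407195-82407294 (minus), Cyp2d9 at chr15:82452277-82452376 (plus), Cyp2c68 at chr19:39741102-39741201 (minus), Cyp2c70 at chr19:40187287-40187386 (minus) and Cyp3a16 at chr5:145469724-145469823 (minus).
Cyp2d26: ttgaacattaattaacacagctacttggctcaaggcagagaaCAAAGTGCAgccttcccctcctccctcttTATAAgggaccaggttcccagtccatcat
Cyp2d10: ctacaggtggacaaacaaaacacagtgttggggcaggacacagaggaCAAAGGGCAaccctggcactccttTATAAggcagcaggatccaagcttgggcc
Cyp2d9: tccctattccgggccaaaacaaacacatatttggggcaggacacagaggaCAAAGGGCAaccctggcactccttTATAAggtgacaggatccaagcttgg
Cyp2c68: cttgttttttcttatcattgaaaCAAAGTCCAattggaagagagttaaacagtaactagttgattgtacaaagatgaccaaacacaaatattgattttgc
Cyp2c70: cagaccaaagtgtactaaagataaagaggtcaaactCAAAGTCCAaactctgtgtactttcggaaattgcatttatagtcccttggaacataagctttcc
Cyp3a16: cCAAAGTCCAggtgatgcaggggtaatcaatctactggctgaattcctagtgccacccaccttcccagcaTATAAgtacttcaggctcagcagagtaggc

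In Cyp2d26 the element begins 58 bases before the start and the TATA box 29 bases before it. Cyp2d10 has them at 53 and 29 bases, and Cyp2d9 at 50 and 26 bases. Over the 250 bases before the start, Cyp2d10 was 54.4% identical to Cyp2d26 and Cyp2d9 was 54%. The promoters of other P450 subfamilies aligned the same way gave 44.8% (Cyp2c70) to 52.8% (Cyp3a25). The values of the 2 neighbours were thus little above those of genes on other chromosomes. The element reads CAAAGTGCA in Cyp2d26 and CAAAGGGCA in the other 2, so the 3 match only through the free letters of the loose form. Their log2 differences were -2.50 for Cyp2d26, 0.62 for Cyp2d10 and 0.33 for Cyp2d9, of which only the first passed the test. Cyp2j6 and Cyp4v3, which had a probe set lower only at an unadjusted p under 0.05, had no match to CAAAGNNCA or TATAA within 250 bases. Cyp2c55, also lower at that level, had only TATAA.

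Of the 48 genes, 39 had a promoter sequence, with 45 starts in all, and 32851 starts of all genes served as the comparison. On either strand within 250 bases, CAAAGTCCA was found in 0.384% of all promoters and 11.1% of the P450 promoters. CAAAGTTCA was found in 0.335% of all promoters and in none of the P450 promoters, and CAAAGGTCA in 0.426% and 4.44%. The 4.44% stood for 2 starts of 1 gene, Cyp3a25, with the same element 179 and 180 bases before them. Any of these 3 full forms was found in 1.14% of all promoters and in 15.6% of the P450 promoters, or 7 of 45 starts. These belonged to Cyp2c65, Cyp2c68, Cyp2c70, Cyp3a11, Cyp3a16 and Cyp3a25, all of the Cyp2c and Cyp3a subfamilies. Genes of a subfamily are related copies and a gene can have several starts, so the P450 promoters are not independent of each other. None of these 6 genes passed the test, with log2 differences of -0.29, -0.20, -0.05, 0.18, 0.01 and 0.12 in that order. The loose form CAAAGNNCA, which overlaps all 3 and was chosen after the sequences had been read, was found in 5.49% of all promoters and 33.3% of the P450 promoters (14 genes). TATAA on the gene's strand was found in 16% and 44.4%. A match is a run of letters and not a bound site.

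The Cyp2d subfamily, which in mice is a cluster of close copies related to the single human drug-metabolising gene CYP2D6, was measured by 9 probe sets for 7 genes. Cyp2d26 had deposited intensities of 17.3 in null_59, 41.2 in null_60 and 31.3 in null_426, against 308 in CONTROL_406 and 174 in CONTROL_421. All 3 null arrays lay far below both controls, with means of 29.9 ± 12.01 (SD, n = 3) and 241 ± 94.9 (SD, n = 2). The log2 difference was -2.50 ± 0.26 (SE), with a 95% interval from -3.09 to -1.90 and an adjusted p of 0.0103 (limma). Fold changes on this scale understate the change of dim probe sets, and the 5.64-fold decrease had an interval from 3.74-fold to 8.51-fold.

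**Figure D1:**
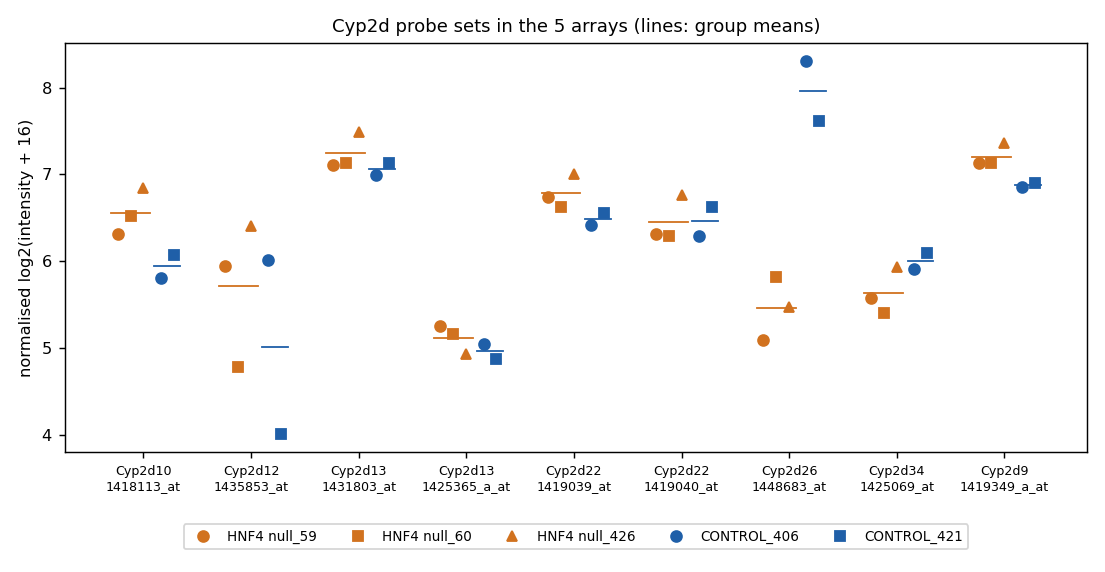
Normalised log2(intensity + 16) of the 9 Cyp2d probe sets in each of the 5 arrays, with HNF4 null arrays in orange, control arrays in blue and a line at each group mean. In Cyp2d26 the 3 null arrays sit below both controls, and in Cyp2d10 and Cyp2d9 they sit above them. Heights are to be compared between arrays within a probe set and not between probe sets.

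Cyp2d10 lay the other way, with intensities of 63.2, 75.3 and 105 in the null arrays against 40.4 and 46.1 in the controls. The groups did not overlap, but the log2 difference of 0.62 ± 0.20 (SE) had an adjusted p of 0.591 (limma). Cyp2d9 gave 124, 125 and 152 against 99.8 and 97.6, and its difference of 0.33 ± 0.17 (SE) had an adjusted p of 0.731 (limma). Its groups did not overlap either, nor did those of 1 of the 2 probe sets of Cyp2d22, whose differences were 0.30 and -0.00. Cyp2d13, the gene with the brightest probe set of the subfamily by the mean over all 5 arrays, gave 122, 126 and 167 against 113 and 117. In the controls alone the mean of Cyp2d26 was higher, at 241 against 115. The pair of Cyp2d13 probe sets had differences of 0.18 and 0.15. Cyp2d34 was at -0.36. In Cyp2d12 the arrays spread widely, with 45.4, 12.3 and 74.6 in the null group against 48.9 and -10.7 in the controls, and the difference was 0.69 ± 0.57 (SE).

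The level of Cyp2d26 was also set against the mean log2 of the other 6 Cyp2d genes in the same array, a measure chosen after the values had been seen. It stood at -1.38, -0.44 and -1.37 in the null arrays and at 1.97 and 1.48 in the controls. The groups differed by -2.79, while the mean of the other 6 genes was 0.29 higher in the null arrays. None of these 6 passed the test, and Cyp2d34 lay lower, at -0.36. They include Cyp2d12, whose value below 0 in CONTROL_421 was set to 0, which adds to the 0.29. In RefSeq order Cyp2d26 is the last P450 gene at 1 edge of the cluster. Of the genes beside it, Cyp2d40 had no member probe set, and Tcf20, the first gene outside the cluster, gave 0.36, -0.02 and -0.11 on its 3 probe sets, none of which passed the test. Probes of close copies can bind each other's RNA, and probe sequences were not used here, so the split of signal between Cyp2d genes is uncertain.

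Cyp2d26 kept its direction without each array in turn, with log2 differences from -2.82 to -2.15. Without null_60 its adjusted p was 0.0600 (limma), and without each of the other 4 arrays it stayed past the threshold. With a pseudocount of 1 the difference was -3.03 and the adjusted p 0.105 (limma), which ends the call. In a whole-colon sample, fewer cells of a type and less RNA per cell cannot be told apart. Of 12 measured genes listed as markers of colonic epithelium, 10 had differences below 0 and none passed the test. At an unadjusted p under 0.05, 6 were lower (Car1, Cdh17, Cdx1, Epcam, Krt20 and Vil1, from -0.87 to -0.50), against 4.28% of all genes by their brightest probe set. The median of the 12 was -0.45, against 0.02 for all probe sets, and their summed intensity was 19204 to 21532 in the null arrays and 22286 to 24610 in the controls. Lgals4, Tff3, Krt8 and Krt19 were at 0.01, -0.06, -0.16 and 0.14, and Cdx2 at -0.21 on its brightest probe set and -0.89 on the other. The part of these shifts in the fall of Cyp2d26 was not tested.

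**Figure D2:**
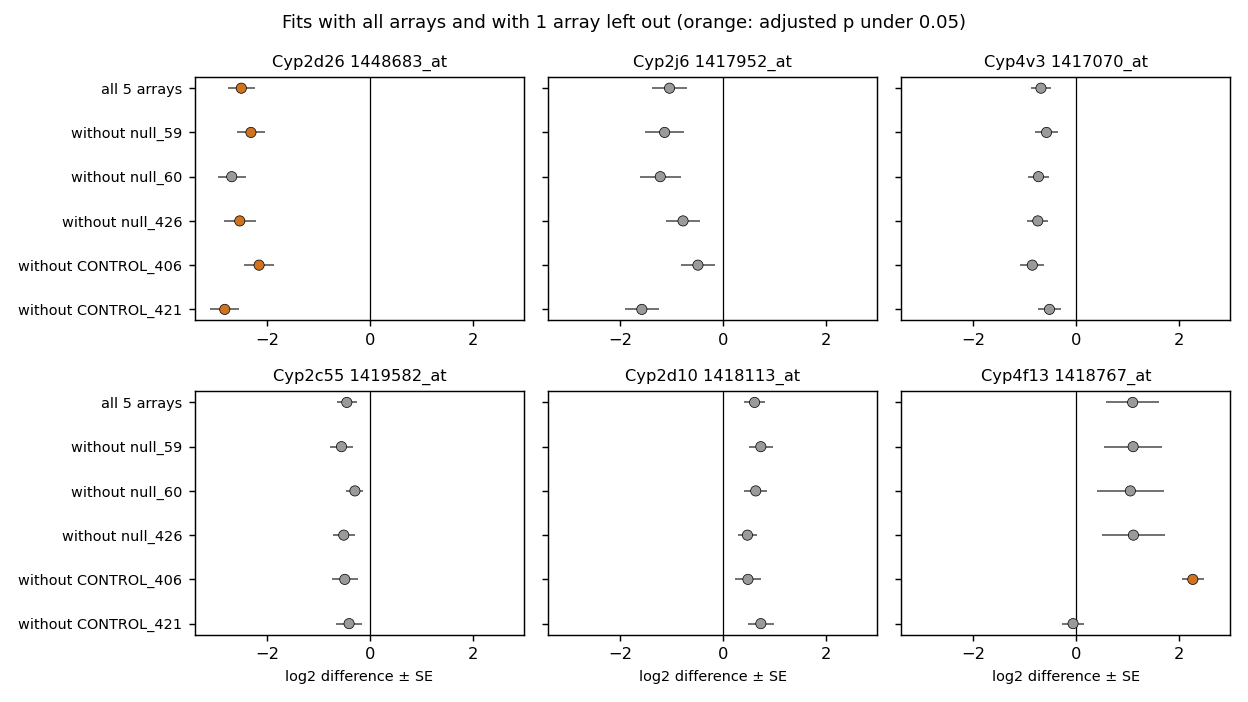
Log2 difference, HNF4 null minus control, with its SE for 6 P450 probe sets, fitted on all 5 arrays and with each array left out, where orange marks an adjusted p under 0.05. Cyp2d26 stays between -2.82 and -2.15, and Cyp4f13 moves from 2.27 without CONTROL_406 to -0.06 without CONTROL_421.

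At an unadjusted p under 0.05, 4 member probe sets were lower (7.02%, against 4.33% of all probe sets) and 1 was higher (1.75%, against 2.82%), while 7.15% of all probe sets reached that level in either direction. Besides Cyp2d26 the lower ones were Cyp2j6, Cyp4v3 and Cyp2c55, and the higher one was Cyp2d10. On the normalised scale the 3 null arrays all lay below both controls in 10 members (17.5%, against 11.6% of all probe sets) and all above them in 9 (15.8%, against 12%). On the deposited values these counts were 8 and 10, against 9.64% and 14.6% of all probe sets, with 7 members changing class. The sign of the difference was below 0 in 29 of the 57 members, against 47.1% of all probe sets, and in 23 with the deposited values, against 41.3%. The members' median difference was -0.00, beside 0.02 for all probe sets.

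**Figure D3:**
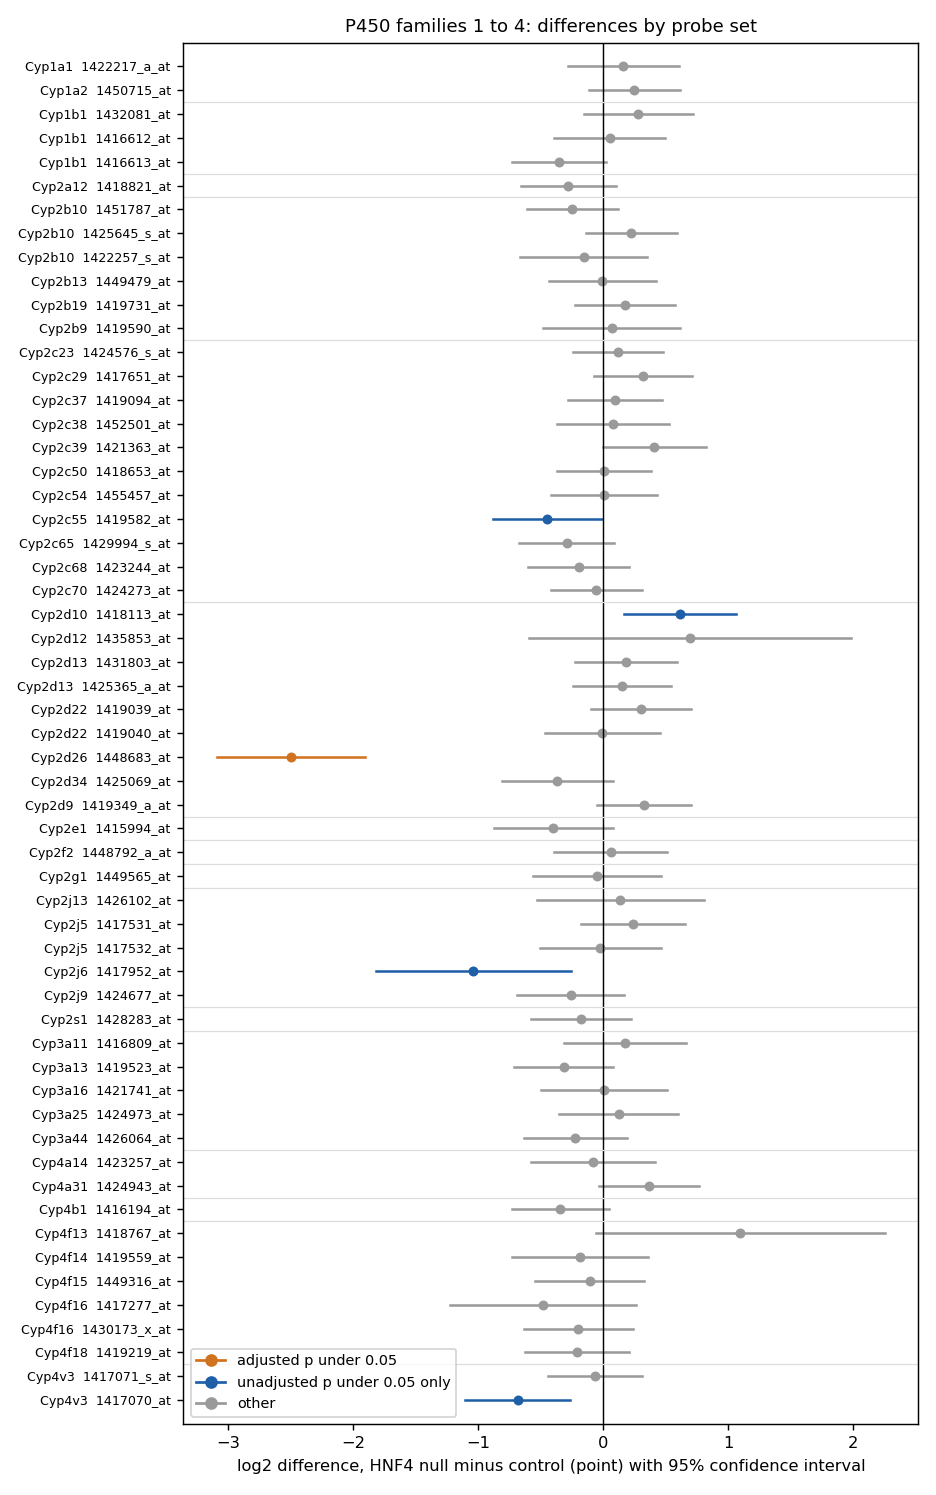
Log2 difference, HNF4 null minus control, with its 95% interval for each of the 57 P450 probe sets, in order of subfamily. The interval of Cyp2d26 runs from -3.09 to -1.90, and those of most other members span 0.

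The intervals show what 5 arrays could resolve. Their bounds lay a median of 0.43 to each side of the difference, and 50 of the 56 members besides Cyp2d26 had a 95% interval that lay wholly within a 2-fold change either way. That count depends on the pseudocount, being 40 with 1 and 54 with 64, since a pseudocount of 16 holds down the folds of dim probe sets. Cyp4a31, Cyp2c39 and the dimmest Cyp1b1 probe set, for example, were at 1.71, 1.85 and -1.23 with the pseudocount of 1, none of them past the test. None of the 56 intervals reached the value of Cyp2d26 with any of the 3 pseudocounts. That value has an interval of its own, from -3.09 to -1.90, and the interval of Cyp2j6 came close to it, reaching -1.82. With the pseudocount of 1, Cyp2j6 was at -1.33 ± 0.50 (SE) and Cyp2d26 at -3.03 ± 0.37 (SE). Many members were dim: 13 probe sets had a mean normalised log2 at or above the median of all probe sets and 44 had one below it. A dim probe set may reflect little RNA or poor binding, and a change in it is harder to see.

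**Figure D4:**
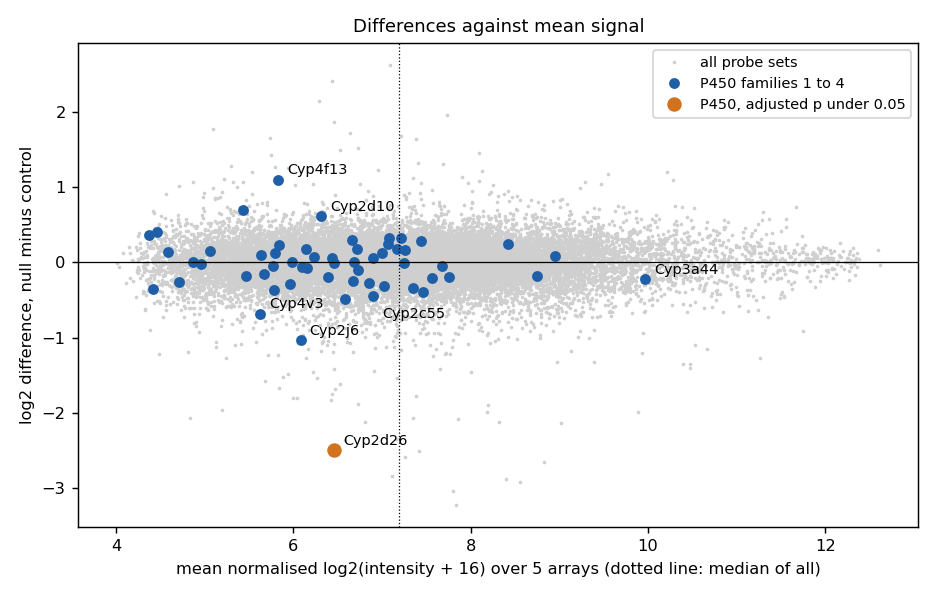
Log2 difference, HNF4 null minus control, against the mean normalised log2(intensity + 16) over the 5 arrays, with all probe sets in grey, the P450 members in blue and Cyp2d26 in orange. Most members lie left of the dotted line, the median of all probe sets, and Cyp2d26 lies at -2.50, apart from the rest.

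In family 1, whose genes are the classic targets of the aryl hydrocarbon receptor, none of 5 probe sets passed the test, and their median difference was 0.16. Cyp1a1, which oxidises polycyclic aromatic hydrocarbons, gave 134, 123 and 184 in the null arrays against 136 and 113, and its difference was 0.16 ± 0.20 (SE). Cyp1a2, the caffeine-oxidising enzyme of liver, gave 136, 120 and 134 against 110 and 94.7. Its groups did not overlap and its difference was 0.25 ± 0.16 (SE, adjusted p = 0.780, limma). Cyp1b1, an enzyme of tissues outside the liver that acts on oestrogens, had 3 probe sets that went different ways, at 0.28, 0.05 and -0.36, and the last of these had intensities of 11.7 or less.

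The Cyp2a, Cyp2b, Cyp2e, Cyp2f, Cyp2g and Cyp2s subfamilies held 11 probe sets, none past the test. Cyp2s1, an enzyme of epithelia outside the liver, gave 365, 479 and 340 in the null arrays against 446 and 458, overlapping, with a difference of -0.18 ± 0.18 (SE). Cyp2e1, the ethanol-oxidising enzyme, gave 151, 109 and 175 against 174 and 208, and its groups overlapped by 1 array at a difference of -0.40 ± 0.21 (SE). Cyp2a12 gave 99.5, 79.2 and 101 against 109 and 113, and all 3 null arrays were lower, with a difference of -0.28 ± 0.17 (SE, adjusted p = 0.772, limma).

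Cyp2b10, the best known target of the receptor CAR (Nr1i3), had 3 probe sets at -0.24, 0.23 and -0.15, the first with the arrays apart in the lower direction and the second in the higher. Cyp2b13 was at -0.01, and the other Cyp2b genes, Cyp2b9 and Cyp2b19, were at 0.07 and 0.17. Cyp2f2, an enzyme of lung club cells, was at 0.06 and Cyp2g1, an enzyme of the olfactory mucosa, at -0.05. None of these 6 subfamilies had a member at an unadjusted p under 0.05.

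The Cyp2c subfamily, which includes epoxygenases of arachidonic acid, held 11 probe sets for 11 genes. None passed the test, and the differences ran from -0.45 to 0.41 with a median of 0.01. Cyp2c55, known from mouse colon, gave 105, 69.2 and 103 in the null arrays against 125 and 125 in the controls. All 3 null arrays lay below the controls, null_60 the most, and the difference of -0.45 ± 0.19 (SE) had an unadjusted p of 0.0463 and an adjusted p of 0.695 (limma). Without null_60 it was -0.29. Cyp2c65, also known from intestine, was at -0.29 ± 0.17 (SE).

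Cyp2c38, the gene with the brightest Cyp2c probe set, gave 426.4, 459 and 575 against 427 and 515. Its groups overlapped throughout, and the difference was 0.08 ± 0.20 (SE), with an interval from -0.37 to 0.53. The highest Cyp2c value, 0.41, belonged to Cyp2c39, whose intensities were at most 11.99 and in CONTROL_421 below 0. The remaining 7 genes, Cyp2c23, Cyp2c29, Cyp2c37, Cyp2c50, Cyp2c54, Cyp2c68 and Cyp2c70, lay between -0.20 and 0.32.

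The Cyp2j subfamily makes epoxides from arachidonic acid in tissues outside the liver, and 4 of its genes had 5 probe sets. Cyp2j6 gave 41.8, 48.8 and 20.7 in the null arrays against 138 in CONTROL_406 and 49.99 in CONTROL_421. The 3 null arrays were all lower, but null_60 lay next to CONTROL_421. Its difference of -1.04 ± 0.35 (SE), or 2.05-fold lower, had an unadjusted p of 0.0144 and an adjusted p of 0.593 (limma). It was -0.49 without CONTROL_406 and -1.58 without CONTROL_421, so 1 control decided its size. Cyp2j9, next to Cyp2j6 in the cluster, was at -0.26, and Cyp2j13 at 0.14. Cyp2j5, best known from kidney and liver, was at 0.24 on the brighter probe set (340, 305 and 399 against 318 and 275) and at -0.02 on the dimmer.

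In family 3, whose members oxidise a wide range of drugs and steroids under the receptor PXR (Nr1i2), none of 5 probe sets passed the test or had an unadjusted p under 0.05. Cyp3a44 gave 971, 818 and 929 in the null arrays against 1069 and 1176. On the deposited scale all null arrays were lower, on the normalised scale they overlapped, and the difference was -0.22 ± 0.18 (SE). Cyp3a13, the member known from intestine, gave 96.4, 122 and 99.5 against 143 and 117, with a difference of -0.32 ± 0.18 (SE). Cyp3a11, the main drug-oxidising member of adult liver, was at 0.18, Cyp3a25 at 0.12 and Cyp3a16, a form of fetal liver, at 0.01.

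In family 4, 9 of 11 probe sets had differences below 0, with a median of -0.18, and none passed the test. Cyp4v3, the counterpart of a human fatty acid hydroxylase gene of the retina, had probe sets that disagreed. The first gave 18.7, 28.4 and 31.9 in the null arrays against 43.0 and 52.3 in the controls, without overlap, and its difference of -0.68 ± 0.19 (SE) had an unadjusted p of 0.00497 and an adjusted p of 0.484 (limma). The other gave 48.2, 58.2 and 52.0 against 50.4 and 52.9, with a difference of -0.06 that turned to 0.02 on the deposited values.

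Cyp4f13, of the subfamily that inactivates leukotrienes, gave 59.7, 65.5 and 63.4 in the null arrays, 64.7 in CONTROL_406 and -7.82 in CONTROL_421. Only CONTROL_421 stood apart, and the difference of 1.10 ± 0.51 (SE) was decided by which control was kept. It was 2.27 without CONTROL_406 (adjusted p = 0.00903, limma) and -0.06 without CONTROL_421 (adjusted p = 0.994, limma). CONTROL_421 was also the array with 3 of the 4 member values below 0. Over all probe sets it had 58 values below 0, against 50 in null_60 and 21 to 35 in the remaining arrays. Its Gapdh 3′ to 5′ ratio was 1.47, against 0.767 to 0.895 in the other 4 arrays. The part of these in the Cyp4f13 value was not tested. Cyp4f18, a form of white blood cells, gave 193, 141 and 161 against 181 and 197, with a difference of -0.21 ± 0.18 (SE). Cyp4f14 was at -0.18, Cyp4f15 at -0.11 and the probe sets of Cyp4f16 at -0.48 and -0.20.

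Cyp4b1, an enzyme best known from lung, gave 126, 142 and 134 in the null arrays against 153 and 189. The groups did not overlap, and the difference of -0.34 ± 0.17 (SE) had an adjusted p of 0.731 (limma). Cyp4a14, an omega-hydroxylase under the receptor PPAR alpha (Ppara), was at -0.08 ± 0.22 (SE), with overlapping arrays of 46.5, 43.1 and 82.5 against 53.2 and 57.4. Cyp4a31 was at 0.37 ± 0.18 (SE), at intensities of 10.5 or less. Outside the rule, Cyp4a12a, whose symbol ends in a letter, was at -0.02, and 4 probe sets that name several genes were at 0.50 (Cyp3a41a and Cyp3a41b), 0.23 (Cyp2a4 and Cyp2a5), 0.01 (Cyp4a10 and Cyp4a31) and -0.29 (Cyp4f16 and Cyp4f37), none past the test.

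Genes that work with the P450 enzymes were read from lists named by function, with 1 value per gene from its brightest probe set, and no list had a probe set past the test. Of 17 measured genes that supply electrons or make and break down haem, 3 were lower and none higher at an unadjusted p under 0.05, and the median was -0.08. Of all genes read the same way, 4.28% were lower and 2.62% higher at that level. Fech, which puts iron into haem, was at 0.01 on its brightest probe set and at -0.80 (adjusted p = 0.242, limma), -0.54 and -0.06 on the others. Fdx1, the electron carrier of mitochondrial P450 enzymes, gave -0.82 (adjusted p = 0.368, limma). Blvrb was at -0.56 (adjusted p = 0.571, limma) and Cyb5a at -0.47 (adjusted p = 0.615, limma). P450 oxidoreductase (Por) was on the list, but no probe set carried its symbol alone, so it was not read.

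Of 23 receptors and factors that control P450 genes, 3 were lower and none higher at an unadjusted p under 0.05, and the median was -0.07. Over all genes the shares were 4.28% lower and 2.62% higher. Cebpa, a liver and gut factor that acts on several Cyp2 genes, was at -0.78 (adjusted p = 0.362, limma). The other lower genes were Cebpb, at -0.58 on its brightest probe set and -0.43 on the other, and Onecut1, at -0.59 and 0.31. Hnf4a, with 4 probe sets, was at -0.35 on the brightest, which was not among the 3 lower genes. Its others were at -0.55 (adjusted p = 0.603, limma), 0.14 and 0.19. Hnf4g was at 0.19 on its brightest probe set and at -0.29 on the other. The labels name HNF4 without alpha or gamma, and which part of the gene is floxed was not given in the sources used here. These values therefore do not check the deletion. The receptors that P450 genes answer to had differences of -0.36 (Ahr), -0.18 (Nr1i2), 0.01 (Nr1i3) and -0.17 (Ppara), none past the test.

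The 4 measured genes listed as other targets of the aryl hydrocarbon receptor had a median of 0.38. At an unadjusted p under 0.05, 2 were higher, against 2.62% of all genes by their brightest probe set. Aldh3a1, an aldehyde dehydrogenase, gave 37.5, 66.7 and 99.4 in the null arrays against 18.46 and 13.2. The groups did not overlap, and its difference of 1.26 ± 0.27 (SE) had an adjusted p of 0.243 (limma). Nqo1, a quinone reductase, was at 0.49 (adjusted p = 0.691, limma). Tiparp was at 0.27 on its brightest probe set and at 0.02 and -0.04 on the others, and Gsta2 was at -0.06. The family 1 genes Cyp1a1 and Cyp1a2, which answer to the same receptor, lay at 0.16 and 0.25, and the probe sets of Cyp1b1 at 0.28, 0.05 and -0.36.

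Among 10 epoxide hydrolases and enzymes of arachidonic acid, which share substrates or products with the Cyp2c and Cyp2j enzymes, 1 was lower and 2 higher at an unadjusted p under 0.05. The shares over all genes by their brightest probe set were 4.28% lower and 2.62% higher. Ephx2, which opens fatty acid epoxides, was at 0.70 (adjusted p = 0.344, limma) and Hpgd, which inactivates prostaglandins, at -0.78 (adjusted p = 0.578, limma) on its brightest probe set and 0.14 on the other. Among 11 flavin monooxygenases and other oxidases, 2 were lower and 1 higher at that level. Maoa, which oxidises amines, was at -0.74 (adjusted p = 0.441, limma) and Fmo2, a flavin monooxygenase, at 0.64 on its brightest probe set, with its other 2 at -0.59 and -0.21. Of the 14 genes of P450 families above 4, which make and break down sterols, bile acids, steroid hormones and vitamins A and D, 0 of 20 probe sets passed the test, 0 had an unadjusted p under 0.05, and the median by gene was 0.15. The smallest p-values were those of Cyp51 (a sterol demethylase), at -0.37 on a dimmer probe set and 0.16 on the brightest, and Cyp8b1 (a bile acid enzyme), at 0.25.

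**Figure D5:**
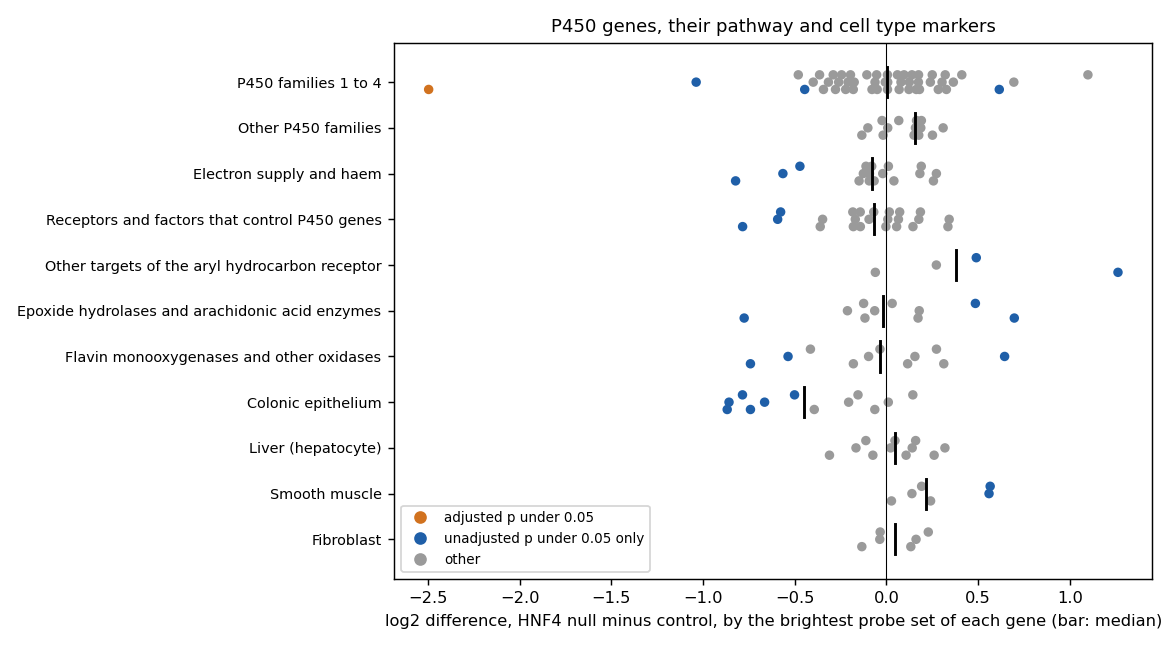
Log2 difference, HNF4 null minus control, of each gene by its brightest probe set, for the P450 genes, the genes that work with them and marker genes of the colon's cell types and of liver, with a bar at each median. Cyp2d26 lies at -2.50, while the colonic epithelium markers have a median of -0.45.

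Liver is where most of these P450 genes are highest, and its markers were read beside them. Of 11 measured hepatocyte markers none passed the test, none had an unadjusted p under 0.05 by its brightest probe set, and the median was 0.05. Their summed intensity was 1598 to 1985 in the null arrays and 1712 to 1779 in the controls. Alb gave 149, 122 and 116 against 94.2 and 95.6, while Ttr was at -0.17 on its brightest probe set and at -1.19 and -1.08 on the other 2. Apoa1 was at -0.56 on its dimmest probe set and at 0.16, 0.25 and -0.07 on the others. These 2 dimmer Ttr probe sets and the dimmest of Apoa1 were lower at an unadjusted p under 0.05. They made 3 of 20 hepatocyte probe sets, against 4.33% of all probe sets, and none was higher at that level. Of 6 smooth muscle markers 2 were higher at an unadjusted p under 0.05 (Myh11 at 0.57 and Tagln at 0.56), against 2.62% of all genes by their brightest probe set. The summed intensity of these 6 was 14677 to 16167 in the null arrays and 12208 to 15091 in the controls. Of 6 fibroblast markers none was higher at that level. The markers listed for pancreas, adrenal and gonad, kidney, bronchiolar club cells and small intestine had no probe set past the test, and at an unadjusted p under 0.05 they had Cela1 (pancreas) at -0.39 and Kap (kidney) at 0.47. The part of these in the P450 differences was not tested.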

How the data were processed

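Colon RNA was purified on Qiagen RNeasy mini columns and biotin-labelled by the standard Affymetrix method, per the labels' protocols. The authors deposited 1 linear intensity per probe set and array. Summary software, scaling and background step are not given in the sources used here. Scanner files were not used. Deposited values below 0 were set to 0, taken as log2(intensity + 16) and quantile normalised, since array medians spread over 0.11 on the log2 scale. Array medians of the deposited intensity were 123.7 to 135.2, and arrays correlated pairwise at 0.946 to 0.974. The number of arrays limits the precision.

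Of 22690 probe sets, 64 control probe sets were left out. A platform annotation of 2016 gave 1 symbol to 20380 of the other 22626, several to 691 and none to 1555. The fit (R 4.3.3, limma 3.58.1, functions lmFit and eBayes) had 3 residual and 9.33 total degrees of freedom and no covariate. P-values were two-sided and adjusted by Benjamini-Hochberg over the 22626, and the fit was checked on simulated data. Named were the members past the threshold or at an unadjusted p under 0.05 with all probe sets of their genes, the brightest gene and the one with the smallest p in each subfamily, and the 2 smallest p-values in each list of genes that work with them. Other P450 members appear with their values or ranges, and other listed genes and marker genes as examples. The members and lists were chosen with earlier results of these data known. Promoters came from RefSeq (GRCm38.p6). Alternatives were other scalings, pseudocounts, variance priors, array weights, a filter on dim probe sets and leaving out each array.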

Additional observations from a re-analysis of the deposited data

How the results depend on the processing

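The count over all probe sets past the threshold was 28, and it was 14 with a pseudocount of 1, 17 without probe sets of below-median mean signal and 45 with array weights. It was 8 to 104 with 1 array left out, lowest without null_60 and highest without CONTROL_406. The P450 count of 1 became 0 with the pseudocount of 1 and 0 without dim probe sets, a filter that kept 13 of the 57 members and gave no value for Cyp2d26. With 1 array left out it was 0 to 2, being 0 without null_60 and 2 without CONTROL_406, when Cyp4f13 joined Cyp2d26. The count at an unadjusted p under 0.05 was 5, and it was 0 without dim probe sets, 10 with array weights and 5 to 7 with 1 array left out. The log2 difference of Cyp2d26 was -3.03 with the pseudocount of 1 (adjusted p = 0.105, limma) and -2.82 to -2.15 with 1 array left out. It passed the threshold with the deposited values, median centring, the pseudocount of 64, both other variance priors and array weights. Among all probe sets Cyp2d26 lay at percentiles 80.2 in CONTROL_406 and 62.7 in CONTROL_421. In null_59, null_60 and null_426 it lay at percentiles 4.41, 14.0 and 8.69. These low null values counted in the mean signal by which the filter removed Cyp2d26. The filter therefore could not test its call. Signs turned for the second Cyp4v3 probe set, at 0.0214 on the deposited values and from -0.146 to 0.0207 with 1 array left out, positive without CONTROL_421, and for Cyp4f13, from -0.0586 without CONTROL_421 to 2.27 without CONTROL_406. In 33 of 57 members the sign held in each of the 13 alternatives that gave a value. In the list of oxidases, Aldh2 passed the threshold without CONTROL_406. The causes of these shifts were not tested, apart from the fewer probe sets that the filter leaves by construction. No paired analysis was possible because the groups share no embryo number. 5 arrays and dim signal limit what small differences could be seen.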
